A study of Homo sapiens with 29 samples.

Results

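The 10 genes described here were 8 matrix metalloproteases (MMP1, MMP2, MMP3, MMP9, MMP10, MMP13, MMP14 and MMP16) and 2 tissue inhibitors of metalloproteases (TIMP1 and TIMP3). They were the rows of the count table whose Ensembl identifiers carry these symbols, 10 of 58302 genes, and were followed across 8 groups of tumours. The study asked whether resistance to chemotherapy goes with methylation-linked changes of transcription, and whether decitabine alters them. Tumours were xenografts of MDA-MB-231, a cell line from a human breast cancer without hormone receptors or HER2 amplification, or of a derivative of it that resists paclitaxel. They were grown from bilateral orthotopic injections in SCID-beige mice, whose adaptive immunity and natural killer cells are impaired. The resistant tumours received decitabine (3 libraries), doxorubicin (4), the combination (3) or vehicle (4). The parental tumours received decitabine (4), doxorubicin (3), the combination (4) or vehicle (4). Decitabine, an inhibitor of DNA methyltransferases, was given at 0.4 mg/kg, and doxorubicin, an anthracycline that damages DNA, at 1 mg/kg, over 26 days in 2 cycles of 12 days. The lines also differed in the number of cells injected, 1500000 resistant against 250000 parental, and in the day on which treatment started, day 16 in resistant against day 6 in parental tumours. The line and these settings cannot be told apart. Which mouse each library came from is not labelled, so that 2 tumours of 1 mouse may be among the replicates, and p-values measure only the spread between samples.

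Matrix metalloproteases are zinc-dependent endopeptidases that are made as inactive proenzymes and, once cleaved, cut collagens, other matrix proteins and growth factor carriers. Most are secreted, whereas MMP14 and MMP16 are anchored in the cell membrane. TIMPs bind the active site of these enzymes and block it. In breast tumours both the cancer cells and the surrounding fibroblasts and myeloid cells make members of these families, and in a xenograft the human transcripts come from the cancer cells, while the stroma is of the mouse. How reads of mouse origin were handled is not given in the sources used here.

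Of the 10 genes, 4 lay together on chromosome 11 (GRCh38, GENCODE 29 annotation, minus strand), namely MMP10 (102770503 to 102780628), MMP1 (102789920 to 102798160), MMP3 (102835801 to 102843803) and MMP13 (102942995 to 102955734), within 185232 bases. The cluster holds 9 genes of the family, of which MMP8, MMP12, MMP20 and MMP27 had no count in any library. MMP2 was annotated on chromosome 16 (55389700 to 55506691), MMP9 on chromosome 20 (46008908 to 46016561), MMP14 on chromosome 14 (22836557 to 22849027), TIMP1 on chromosome X (47582313 to 47586789) and TIMP3 on chromosome 22 (32801701 to 32863043). TIMP1 and TIMP3 each lie inside a synapsin gene on the opposite strand. Those host genes had 4 counts (SYN1) and 0 counts (SYN3) over all libraries, against 29321 for TIMP1 and 257482 for TIMP3. MMP1, MMP3 and MMP10 are related in sequence, and reads that fit more than 1 of them could have been split.

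Since decitabine removes DNA methylation at CpG sites, the promoters of an inhibitor and a protease with unlike CpG content are shown. Promoters of 4 of the 10 genes were matched in a RefSeq table (GRCh38.p14, 250 bases before to 50 after the start, gene strand). TIMP3, which is known for promoter methylation in several cancers, has 31 CpG sites and a GC content of 72.7% in this window (22:32801455-32801754, plus strand), more CpG sites than 79.3% of 35116 promoters. MMP10, the secreted stromelysin 2, has 2 CpG sites and a GC content of 36.3% (11:102780579-102780878, minus strand), and 11.0% of promoters have fewer. Capitals mark 2 motifs searched on both strands, the AP-1 site TGANTCA, which matched as TGAATCA from -67 to -61 relative to the start, and the TATA box TATAAA from -31 to -26.
TIMP3: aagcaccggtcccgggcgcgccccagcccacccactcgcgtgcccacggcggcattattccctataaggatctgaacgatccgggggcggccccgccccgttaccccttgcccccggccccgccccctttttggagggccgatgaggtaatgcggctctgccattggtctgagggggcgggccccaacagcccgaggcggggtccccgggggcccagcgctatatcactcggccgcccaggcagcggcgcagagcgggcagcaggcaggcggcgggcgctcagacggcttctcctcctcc
MMP10: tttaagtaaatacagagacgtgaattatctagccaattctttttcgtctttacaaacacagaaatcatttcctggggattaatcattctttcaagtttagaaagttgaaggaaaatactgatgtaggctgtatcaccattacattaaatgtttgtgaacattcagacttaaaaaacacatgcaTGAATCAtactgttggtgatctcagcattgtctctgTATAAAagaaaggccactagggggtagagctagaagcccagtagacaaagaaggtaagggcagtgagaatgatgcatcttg
The AP-1 letters occur in 7.71% and the TATA letters in 11.5% of promoters of this length, and neither was found in the TIMP3, TIMP1 or MMP14 windows. The 2 matches in MMP10 do not overlap. MMP14 and TIMP1 have 10 and 16 CpG sites there, beside a median of 14 over all promoters. These are descriptions of sequence, and methylation was not measured in the files used.

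Library totals ran between 3398261 and 5382295 counts, with a median of 4600007. Levels are given as CPM, counts scaled to library size with TMM factors. The tags were read near the 3′ end of transcripts and do not scale with transcript length, so levels of different genes can be set side by side as tags. Differences are log2 fold changes with standard errors from edgeR's quasi-likelihood test over the 13495 genes that passed a filter on low counts, and a gene was called at a Benjamini-Hochberg adjusted p under 0.05. Of the 10 genes, 9 passed the filter, and MMP13 (63 counts in all) did not. Some passed through the groups in which they were high, since the minimum of 10 counts was reached by MMP9 in 5 libraries, all from resistant decitabine or combination tumours, and by MMP2 in the 15 parental libraries only. MMP3 reached this minimum in 10 libraries, none of them from vehicle tumours. The 10 genes were also chosen with earlier results of these data known. Counts over the 9 genes are therefore descriptions, also where the share of all genes stands beside them. Resistant decitabine 2 and parental vehicle 3 stood apart from the other libraries on the second principal component (13.2% of variance), and results that changed without them are given with both values. The 7 markers of MDA-MB-231 cells were present in every library, with a median of 2368 CPM for vimentin (VIM), and the progesterone receptor (PGR) had 1 count in all.

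TIMP3, an inhibitor that binds the extracellular matrix, was the most abundant of the 10 with 67.2% of their counts. MMP14, the membrane-bound activator of proMMP2, followed with 22.7%, TIMP1, a soluble inhibitor, with 7.66%, and MMP1, the interstitial collagenase, with 1.62%. Each of the other 6 had under 1 count in 100. The summed level of the 2 inhibitors averaged 2709 ± 244 CPM in resistant and 1717 ± 110 CPM in parental vehicle tumours, while the 8 proteases together averaged 640 ± 125 and 749 ± 202 CPM (SD, n = 4 each). Without MMP14 the proteases summed to 13.9 ± 3.66 CPM in resistant and 57.1 ± 11.5 CPM in parental vehicle tumours. The proteases other than MMP14 were thus a small share of the tags in both lines.

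**Figure D1:**
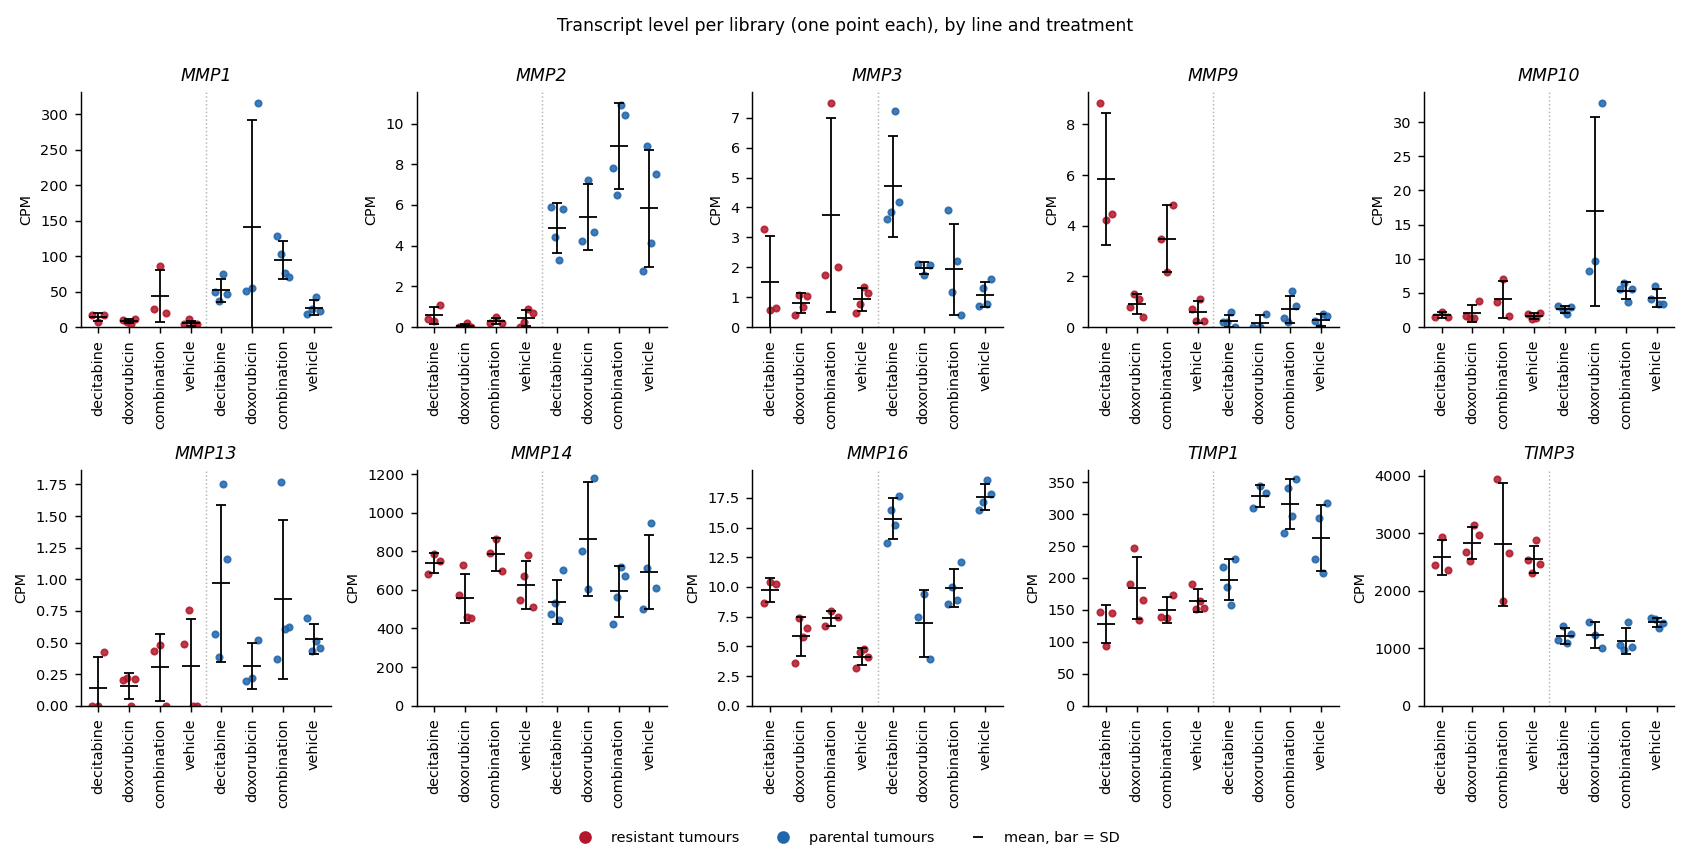
Level of each gene (CPM, linear axis from 0) in every library, 1 point per library, for the 4 treatments of resistant (red, left) and parental (blue, right) tumours. Black marks give the mean and bars the SD, cut off at 0. The lowest TIMP3 value in a resistant library is 1822 CPM and the highest in a parental library 1522 CPM. MMP9 is at or above 2.18 CPM in all resistant libraries given decitabine, alone or in combination, and at or below 1.41 CPM in all others.

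Resistant tumours differed from parental tumours in most of these genes, which were chosen with earlier results of these data known. Under vehicle, 6 of the 9 tested genes were called (1 higher, 5 lower in resistant tumours), against 20.1% of all genes tested (8.66% higher, 11.5% lower). The same 6 did not overlap between the groups, which held for 22.3% of all genes tested. The median log2 difference of the 9 was -0.67, beside 0.02 over all genes tested. Averaged over the 4 treatments, 7 of 9 were called (2 higher, 5 lower), against 46.0% of all genes (22.6% higher, 23.4% lower). All 7 kept their call and direction in each of the 29 fits that left out 1 library.

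Among the secreted proteases of the chromosome 11 cluster, MMP1 had 3.88, 11.1, 4.52 and 3.84 CPM in resistant vehicle tumours, against 19.0, 25.2, 43.2 and 22.4 CPM in parental vehicle tumours. The groups did not overlap. The log2 difference was -2.24 ± 0.64 (SE, adjusted p = 0.0150). Without parental vehicle 3, the highest parental value, it was -1.93 (adjusted p = 0.0626), and without both libraries that stood apart -1.94 (adjusted p = 0.0688). Averaged over treatments MMP1 was lower in resistant tumours by a log2 difference of -2.31 ± 0.30 (adjusted p = 1.45e-06), or -2.17 (adjusted p = 2.04e-05) without both. MMP10, which can activate other proMMPs, had 1.94, 1.27, 1.36 and 2.03 CPM in resistant vehicle and 4.17, 6.08, 3.34 and 3.42 CPM in parental vehicle tumours, again with no overlap. Its vehicle difference of -1.36 ± 0.48 (adjusted p = 0.0462) lay near the threshold, lost its call in 20 of 29 leave-one-out fits (highest adjusted p 0.144, without parental vehicle 2), and reached adjusted p = 0.0542 without both libraries that stood apart. Over the 4 treatments the MMP10 difference was -1.35 ± 0.24 (adjusted p = 3.49e-05). MMP3, stromelysin 1, was at 0.933 ± 0.387 CPM in resistant and 1.09 ± 0.432 CPM in parental vehicle tumours (SD, n = 4 each) and was not called. MMP13, collagenase 3, was at or below 0.760 CPM in all vehicle libraries, with 5 counts in the resistant and 9 in the parental group, a resistant to parental ratio of 0.565 (exact 95% interval 0.149 to 1.88, counting error only).

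The gelatinases MMP2 and MMP9 cut denatured collagen and basement membrane collagen. MMP2 was lower in resistant tumours, whereas MMP9 did not differ by a call under vehicle. MMP2 had 0, 0.253, 0.904 and 0.678 CPM in resistant vehicle tumours and 2.78, 8.91, 4.12 and 7.53 CPM in parental vehicle tumours. The highest resistant value lay below the lowest parental value, and the log2 difference was -3.57 ± 0.50 (adjusted p = 6.61e-06). The gap was present under each drug too. MMP2 had 8 counts in resistant and 96 in parental decitabine tumours, a parental to resistant ratio of 7.89 after scaling (exact 95% interval 3.85 to 18.8, counting error only). It had 1 count over 4 resistant doxorubicin libraries and 73 over 3 parental ones, a ratio of 101 (17.6 to 4043). It had 4 counts in resistant and 179 in parental combination tumours, a ratio of 30.4 (11.7 to 113). MMP9 was at 0.585 ± 0.431 CPM in resistant and 0.301 ± 0.235 CPM in parental vehicle tumours (SD, n = 4 each), which was not called. Over the 4 treatments MMP9 was higher in resistant tumours by 2.52 ± 0.39 (adjusted p = 4.51e-06). That average takes in the resistant decitabine and combination groups, through which MMP9 passed the filter. Resistant to parental counts were 79 to 5 with decitabine, a ratio of 24.0 (9.87 to 76.0), and 49 to 14 with the combination, 5.15 (2.80 to 10.1). They were 17 to 2 with doxorubicin, 6.14 (1.46 to 54.8), and 10 to 5 with vehicle, 2.03 (0.633 to 7.58).

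MMP2 is also a product of fibroblasts, and MMP9 of myeloid cells. In these bulk samples fewer cells of a type and less RNA per cell cannot be told apart. The summed level of 9 fibroblast markers ran from 667 to 2108 CPM in resistant vehicle and from 806 to 1247 CPM in parental vehicle tumours, so the ranges overlapped. Of 7 fibroblast markers tested, 1 was called (ACTA2, smooth muscle actin, higher in resistant tumours by 0.92 ± 0.28, adjusted p = 0.0173). In this comparison 20.1% of all genes tested were called, so the count does not set these markers apart. The collagen gene COL1A1 was present in every library with a median of 606 CPM, and LUM had 31 counts in all. The part of stromal RNA in the MMP2 difference was not tested.

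Of the membrane-bound proteases, MMP16 (chromosome 8, 88032009 to 88328025, minus strand), which like MMP14 activates proMMP2, had 3.16, 4.56, 4.75 and 4.07 CPM in resistant vehicle tumours and 16.5, 17.2, 19.0 and 17.8 CPM in parental vehicle tumours. The 2 groups were far apart relative to their spread, with a log2 difference of -2.08 ± 0.22 (adjusted p = 6.32e-08). The difference averaged over treatments was smaller, -0.87 ± 0.11 (adjusted p = 2.27e-07). MMP14 had 545, 670, 778 and 510 CPM in resistant and 500, 712, 946 and 609 CPM in parental vehicle tumours. These ranges overlapped, and the mean line difference over treatments was 0.02 ± 0.11 (adjusted p = 0.904), with the sign turning in 3 of the leave-one-out fits.

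The inhibitors also moved apart. TIMP3 had 2537, 2309, 2873 and 2457 CPM in resistant vehicle tumours and 1522, 1502, 1346 and 1446 CPM in parental vehicle tumours, without overlap. It was higher in resistant tumours by 0.81 ± 0.16 under vehicle (adjusted p = 0.000675) and by 1.10 ± 0.09 over the 4 treatments (adjusted p = 2.50e-11). TIMP1 had 191, 151, 163 and 154 CPM in resistant vehicle tumours and 230, 295, 208 and 318 CPM in parental vehicle tumours. All resistant values lay below all parental values, with a log2 difference of -0.67 ± 0.17 (adjusted p = 0.00441) and of -0.80 ± 0.09 over treatments (adjusted p = 1.95e-08). Both TIMP differences kept their call in all 29 leave-one-out fits.

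**Figure D2:**
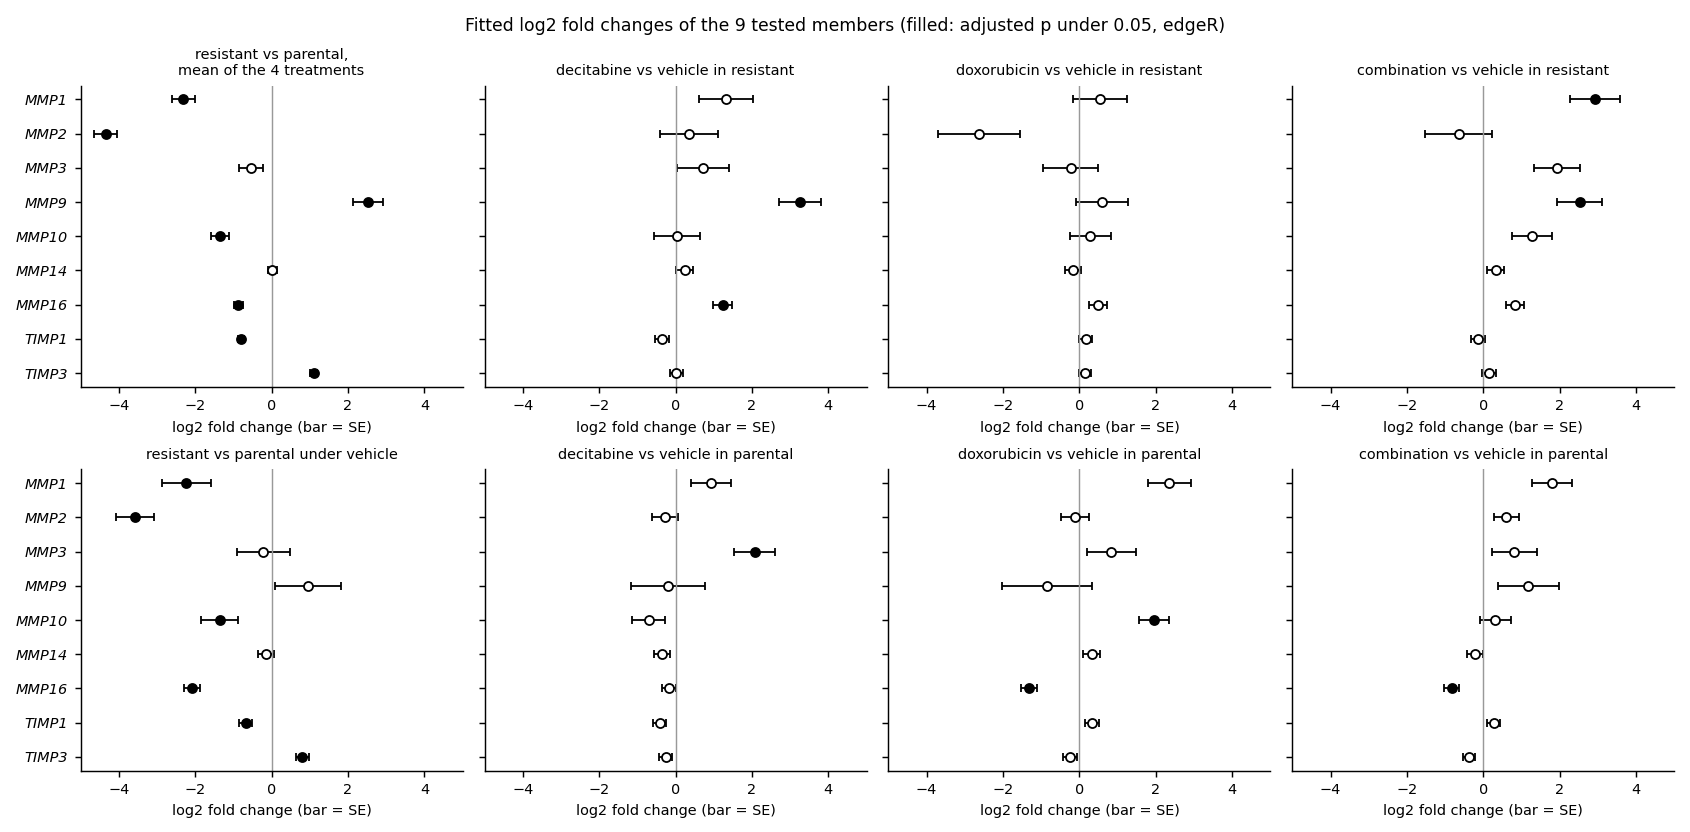
Log2 fold change (bars, SE) of the 9 tested genes in 8 comparisons, resistant over parental in the left column and each treatment over vehicle in the others, with the resistant line in the upper and the parental line in the lower row of treatment panels. Filled points are called by edgeR. The largest line difference is that of MMP2 (-4.35 over the 4 treatments), and the largest called treatment difference that of MMP9 with decitabine in resistant tumours (3.27).

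Decitabine alone raised MMP9 and MMP16 in resistant tumours and MMP3 in parental tumours. In resistant tumours 2 of 9 genes were called, both higher, against 3.33% of all genes tested (2.03% higher, 1.30% lower), and in parental tumours 1 of 9, higher, against 1.67% (0.793% higher, 0.874% lower). MMP9 had 8.84, 4.24 and 4.47 CPM in resistant decitabine tumours, against 0.728, 0.253, 1.13 and 0.226 CPM in resistant vehicle tumours. Every decitabine value exceeded every vehicle value, with a log2 fold change of 3.27 ± 0.55 (adjusted p = 0.000746). Without the libraries that stood apart it was 3.44 (adjusted p = 0.000890). MMP9 had at most 9 counts in every library outside the resistant decitabine and combination groups, so it passed the filter through the groups in which it was high. It was also called with no filter on low counts, where 1089 of 30339 genes were called. Over all 29 leave-one-out fits the adjusted p of MMP9 was at most 0.00915. MMP16 had 8.63, 10.5 and 10.2 CPM in resistant decitabine tumours and the 3.16 to 4.75 CPM given above in resistant vehicle tumours, a log2 fold change of 1.23 ± 0.24 (adjusted p = 0.00336). In parental tumours MMP9 stayed at or below 0.585 CPM with decitabine and 0.514 CPM with vehicle, 5 counts in each group, and MMP16 was at 15.8 ± 1.71 CPM with decitabine and 17.6 ± 1.09 CPM with vehicle (SD, n = 4 each). Neither was called there.

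MMP3 had 3.61, 3.84, 7.22 and 4.18 CPM in parental decitabine tumours, against 0.696, 1.30, 0.772 and 1.60 CPM in parental vehicle tumours. The groups did not overlap, and the log2 fold change was 2.07 ± 0.54 (adjusted p = 0.0451). MMP3 reached the minimum of 10 counts in no vehicle library, so it passed the filter through drug-treated groups, among them parental decitabine. The call was lost in 10 of 29 leave-one-out fits, with a highest adjusted p of 0.224 without parental decitabine 3, and it was lost without the 2 libraries that stood apart (1.95, adjusted p = 0.0866). With doxorubicin in both arms the parental ranges overlapped, and the combination was not tested against doxorubicin. MMP3 had 3.91, 1.18, 2.22 and 0.417 CPM in parental combination and 2.12, 1.76 and 2.08 CPM in parental doxorubicin tumours. The combination was not called against vehicle (0.81 ± 0.60, adjusted p = 0.458). In resistant tumours MMP3 was at 1.50 ± 1.55 CPM with decitabine (n = 3) and 0.933 ± 0.387 CPM with vehicle (n = 4, SD), since 1 decitabine library had 3.29 CPM and the others 0.565 and 0.639 CPM. MMP10 had 3.04, 2.49, 1.95 and 3.02 CPM in parental decitabine tumours, below all parental vehicle values, but the log2 fold change of -0.70 ± 0.44 was not called (adjusted p = 0.388).

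Summed markers of myeloid and of endothelial cells were also higher in the resistant groups in which MMP9 rose. The summed level of 10 myeloid markers ran from 182 to 229 CPM in resistant decitabine tumours, from 166 to 185 CPM in resistant combination tumours and from 117 to 149 CPM in resistant vehicle tumours, and 2 of 7 tested markers were called higher with decitabine in resistant tumours, where 2.03% of all genes were. One was LAPTM5, a lysosomal membrane protein of leukocytes, at 141 ± 30.3 CPM in resistant decitabine (n = 3) and 78.5 ± 9.86 CPM in resistant vehicle tumours (n = 4, SD). In resistant doxorubicin tumours the myeloid sum ran from 83.2 to 93.9 CPM, below the whole vehicle range. MMP9 was at 0.912 ± 0.388 CPM there and at 0.585 ± 0.431 CPM with vehicle (SD, n = 4 each), which was not called. In parental tumours the sum ran from 106 to 190 CPM with decitabine and from 72.8 to 112 CPM with vehicle, where MMP9 was not called. Of the markers with at least 5 CPM, LAPTM5 and CTSS were called with decitabine in parental tumours, both higher. Their log2 fold changes were 0.85 ± 0.19 and 1.20 ± 0.27 (adjusted p = 0.0271 each), where 0.793% of all genes were called higher. In resistant tumours that of LAPTM5 was 0.84 ± 0.20 (adjusted p = 0.0167). Of the 10 myeloid markers, TYROBP had 2 counts and ITGAM 5 over all 29 libraries, while PTPRC, the leukocyte phosphatase CD45, had 462, CSF1R 207, FCER1G 150, AIF1 149 and CD14 70, beside 181 for MMP9 itself. PTPRC and CSF1R had counts in all 29 libraries. LAPTM5 (11085), CD68 (3214) and CTSS (1957) held most of the sum. Of 6 neutrophil markers, S100A8, S100A9, ELANE and FCGR3B had no count in any library. The summed level of 8 endothelial markers ran from 30.7 to 37.6 CPM in resistant decitabine, from 30.3 to 47.4 CPM in resistant combination and from 18.3 to 26.6 CPM in resistant vehicle tumours, again without overlap with vehicle. In parental tumours it ran from 29.1 to 31.4 CPM with decitabine and from 21.4 to 31.1 CPM with vehicle. Of 5 endothelial markers tested, 1 was called with decitabine in resistant tumours, against 3.33% of all genes tested. It was the coreceptor endoglin ENG (1.26 ± 0.25, adjusted p = 0.00451). With the combination 1 was called, against 1.13%, the adhesion molecule PECAM1 (1.47 ± 0.26, adjusted p = 0.00252). The part of myeloid or endothelial RNA in the MMP9 result was not tested.

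**Figure D3:**
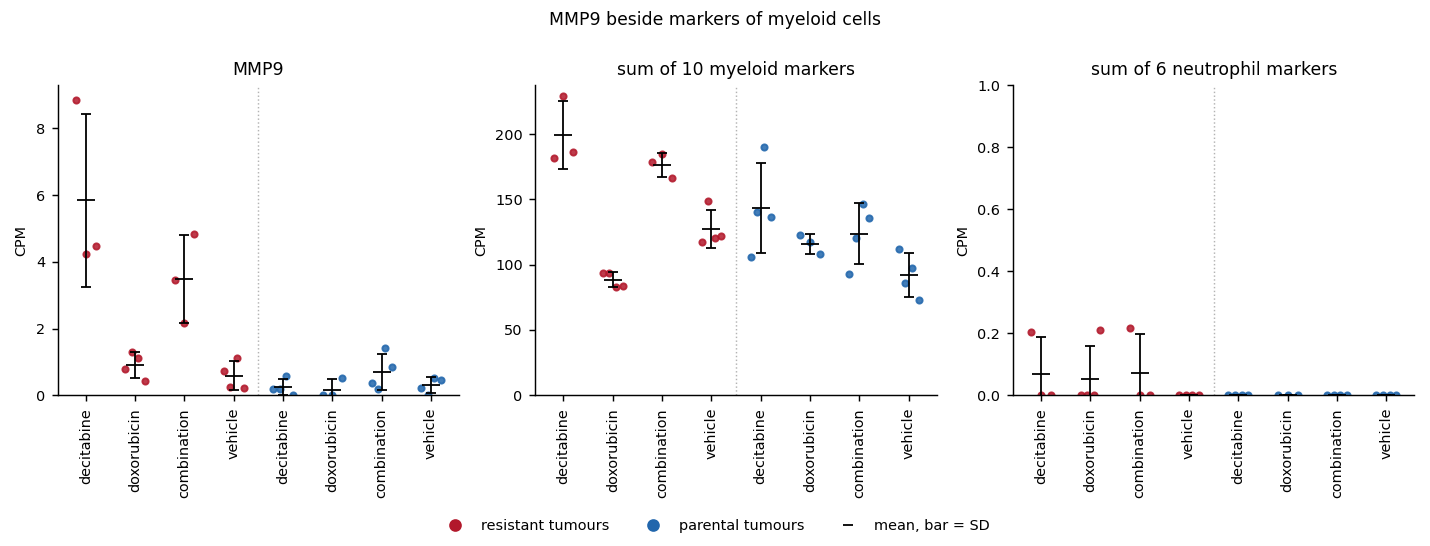
MMP9 (left), the sum of 10 myeloid markers (middle) and the sum of 6 neutrophil markers (right), in CPM per library, with means and SD bars cut off at 0. MMP9 is highest in resistant decitabine and combination tumours, which also have the highest group means of the myeloid sum (199 and 177 CPM), although 1 parental decitabine library reaches 190 CPM, while the neutrophil sum is at or below 0.216 CPM in every library.

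Averaged over both lines and over the presence of doxorubicin, decitabine raised 4 of 9 genes and none was called lower, against 6.80% of all genes tested (3.96% higher, 2.85% lower). MMP9 rose by a log2 fold change of 1.76 ± 0.43 (adjusted p = 0.0107), MMP3 by 1.23 ± 0.31 (adjusted p = 0.0129), MMP1 by 1.02 ± 0.30 (adjusted p = 0.0432) and MMP16 by 0.47 ± 0.11 (adjusted p = 0.00809). The MMP1 call was lost in 19 of 29 leave-one-out fits (highest adjusted p 0.106, without resistant combination 2), that of MMP3 without resistant decitabine 1 (0.90, adjusted p = 0.120) and that of MMP9 without parental decitabine 3 (1.56, adjusted p = 0.0890). TIMP1 had a log2 fold change of -0.28 ± 0.09 that just missed the threshold (adjusted p = 0.0511). It was called lower without the 2 libraries that stood apart (-0.26, adjusted p = 0.0468), by DESeq2 (-0.27, adjusted p = 0.0491), with no filter on low counts (-0.28, adjusted p = 0.00570) and in 11 of 29 leave-one-out fits, with adjusted p from 0.00570 to 0.0942 over all alternatives. TIMP3, with its CpG-rich promoter, was at 2579 ± 309 CPM in resistant decitabine (n = 3) and 2544 ± 238 CPM in resistant vehicle tumours (n = 4), and at 1215 ± 135 CPM in parental decitabine and 1454 ± 79.0 CPM in parental vehicle tumours (SD, n = 4 each). It was not called in either line.

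The decitabine response was tested for a difference between the lines with doxorubicin averaged out. MMP14 was the 1 gene called of 9 (3.32% of all genes, 2.07% higher and 1.25% lower), with a difference of 0.82 ± 0.22 log2 units (adjusted p = 0.0423), higher in resistant tumours. In resistant tumours MMP14 had 684, 787 and 750 CPM with decitabine and 545, 670, 778 and 510 CPM with vehicle. In parental tumours it had 477, 532, 446 and 702 CPM with decitabine and 500, 712, 946 and 609 CPM with vehicle. The ranges overlapped in both lines, and neither line alone gave a call. With doxorubicin in both arms, MMP14 had 790, 863 and 696 CPM in resistant combination and 574, 731, 460 and 456 CPM in resistant doxorubicin tumours, against 422, 562, 716 and 674 CPM in parental combination and 803, 604 and 1182 CPM in parental doxorubicin tumours. The call was lost in 18 of 29 leave-one-out fits (highest adjusted p 0.0969, without resistant decitabine 2) and without both libraries that stood apart (0.70, adjusted p = 0.141). For MMP9, called with decitabine in resistant tumours alone, the difference of the averaged response between lines was 1.68 ± 1.01 (adjusted p = 0.278), and for MMP16 it was 0.62 ± 0.22 (adjusted p = 0.0840). The differences of MMP10 (1.68 ± 0.49, adjusted p = 0.0514) and MMP1 (1.67 ± 0.60, adjusted p = 0.0896) were also larger than that of MMP14 and higher in resistant tumours. Neither was called, but MMP10 was called with upper quartile scaling, by DESeq2, with no filter, with the replicate block and in 9 of 29 leave-one-out fits (adjusted p from 0.000501 to 0.154 over all alternatives), and MMP1 by DESeq2 (adjusted p = 0.0434) and with no filter (9.27e-16, with a highest value of 0.224). With no filter 1884 of 30339 genes were called for this line difference, against 448 of 13495 with it.

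Doxorubicin alone raised MMP10 and lowered MMP16 in parental tumours, and no gene of the 9 was called in resistant tumours. In parental tumours 2 of 9 were called, against 0.230% of all genes tested (0.0371% higher, 0.193% lower). MMP10 had 8.27, 9.66 and 32.8 CPM in parental doxorubicin tumours and 4.17, 6.08, 3.34 and 3.42 CPM in parental vehicle tumours. All doxorubicin values were higher, and the log2 fold change was 1.95 ± 0.40 (adjusted p = 0.0438). MMP16 had 7.50, 9.44 and 3.91 CPM in parental doxorubicin and 16.5 to 19.0 CPM in parental vehicle tumours, a log2 fold change of -1.32 ± 0.22 (adjusted p = 0.00749). Parental doxorubicin 3 carried the most extreme value of both genes. It also had the highest mitochondrial share of counts of all 29 libraries (9.45%, against 6.94 to 8.51% in the other parental libraries), whose part in these values was not tested. Without it the log2 fold change was 1.06 (adjusted p = 0.503) for MMP10 and -1.06 (adjusted p = 0.265) for MMP16. MMP10 lost its call in 15 of 29 leave-one-out fits, and without the 2 libraries that stood apart (1.86, adjusted p = 0.148), where MMP16 kept it (-1.28, adjusted p = 0.0316). MMP1 followed the same library, with 51.0, 55.3 and 316 CPM in parental doxorubicin tumours, all above the 19.0 to 43.2 CPM of parental vehicle tumours, and its log2 fold change of 2.35 ± 0.55 was not called (adjusted p = 0.0849). DESeq2 called it (2.36, adjusted p = 0.0118), as did edgeR with no filter (2.35, adjusted p = 8.74e-38), and the highest adjusted p over its alternatives was 0.714. With no filter 192 of 30339 genes were called in this comparison, against 31 of 13495 with it. The adjusted p of MMP1 was far smaller in that fit than in the others, and the cause was not tested.

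In resistant tumours none of the 9 genes, and 0% of all genes, was called with doxorubicin by edgeR in the fit of all groups or by DESeq2. With no filter on low counts edgeR called 74 of 30339 genes, and with only the groups compared 4 of 12187, none of them among the 10 genes. At an unadjusted p under 0.05, edgeR gave 2 of the 9 genes and 591 of 13495. MMP16 had 3.60, 7.41, 5.81 and 6.53 CPM in resistant doxorubicin tumours and 3.16 to 4.75 CPM in resistant vehicle tumours, and the ranges overlapped. MMP2 had 1 count with doxorubicin and 8 with vehicle, a vehicle to doxorubicin ratio of 8.90 (exact 95% interval 1.19 to 395, counting error only). The difference in the averaged doxorubicin response between lines, a comparison added after the values were seen, gave no call in the 9 genes (0% of all genes) by edgeR on the filtered genes. At an unadjusted p under 0.05 it gave 2 of the 9 and 1119 of all genes. The MMP16 difference was 1.04 ± 0.22 (adjusted p = 0.0976), and DESeq2 called it with 1.05 (adjusted p = 0.00780). edgeR also called it with no filter (1.04, adjusted p = 0.0263), where 113 of 30339 genes were called, and without parental decitabine 1 (1.08, adjusted p = 0.0296), and the highest adjusted p over its alternatives was 0.221.

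Averaged over lines and decitabine, doxorubicin raised 3 genes and lowered 1 of 9, against 2.37% of all genes tested (0.830% higher, 1.54% lower). MMP1 rose by 1.34 ± 0.30 (adjusted p = 0.0246), MMP10 by 1.12 ± 0.24 (adjusted p = 0.0182) and TIMP1 by 0.35 ± 0.09 (adjusted p = 0.0390), while MMP16 fell by 0.48 on the log2 scale (SE 0.11, adjusted p = 0.0246). For doxorubicin alone against vehicle, MMP16 changed by -1.32 ± 0.22 in parental tumours and by 0.49 ± 0.24, not called, in resistant tumours. MMP1 and MMP10, neighbours on chromosome 11, were both raised in this average, and MMP10 kept its call in all 29 leave-one-out fits. TIMP1 lost its call in 17 of these fits and without the 2 libraries that stood apart (0.28, adjusted p = 0.0647). MMP16 lost it in 3 of 29, with a highest adjusted p of 0.0616 without resistant combination 1, and MMP1 in 1, without resistant decitabine 3 (adjusted p = 0.0537). TIMP1 had 309, 344 and 333 CPM in parental doxorubicin and 230, 295, 208 and 318 CPM in parental vehicle tumours, where the ranges overlapped.

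The combination of both drugs raised MMP1 and MMP9 in resistant tumours and lowered MMP16 in parental tumours. In resistant tumours 2 of 9 genes were called, against 1.13% of all genes tested (0.911% higher, 0.215% lower), and in parental tumours 1 of 9, against 1.03% (0.645% higher, 0.385% lower). MMP1 had 26.2, 86.3 and 20.3 CPM in resistant combination tumours, against 3.88, 11.1, 4.52 and 3.84 CPM in resistant vehicle tumours. No value overlapped, and the log2 fold change was 2.92 ± 0.65 (adjusted p = 0.0275). It was lost in 4 of 29 leave-one-out fits. Without resistant combination 2, the highest library, it was 2.00 (adjusted p = 0.172), and without resistant vehicle 1, 3 or 4 the adjusted p was 0.0815, 0.0646 or 0.0950. MMP9 had 3.46, 2.18 and 4.82 CPM in resistant combination tumours, all above the resistant vehicle range of 0.226 to 1.13 CPM, with a log2 fold change of 2.52 ± 0.59 (adjusted p = 0.0272). That call was lost in 5 of 29 fits, those without resistant vehicle 1, 2 or 4 (adjusted p = 0.0578, 0.0956 and 0.102) or without resistant combination 1 or 3 (0.0957 and 0.0807). MMP3, at 1.73, 7.49 and 2.01 CPM in resistant combination and 0.486, 0.760, 1.36 and 1.13 CPM in resistant vehicle tumours, did not overlap but was not called (1.93 ± 0.61, adjusted p = 0.123).

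In parental combination tumours MMP16 had 8.56, 10.0, 8.88 and 12.1 CPM, against 16.5, 17.2, 19.0 and 17.8 CPM in parental vehicle tumours. The groups did not overlap, and the log2 fold change was -0.83 ± 0.19 (adjusted p = 0.0277). The call was lost in 6 of 29 leave-one-out fits, those without parental vehicle 1, 3 or 4 and without parental combination 1, 2 or 3 (highest adjusted p 0.109, without combination 1), and without the 2 libraries that stood apart (-0.79, adjusted p = 0.0743). In resistant tumours the MMP16 values ran the other way, with 6.71, 7.98 and 7.44 CPM with the combination and 3.16 to 4.75 CPM with vehicle. That log2 fold change of 0.83 ± 0.25 was not called (adjusted p = 0.104). MMP1 had 128, 103, 76.1 and 70.6 CPM in parental combination tumours, all above the parental vehicle range of 19.0 to 43.2 CPM, and its log2 fold change of 1.79 ± 0.52 missed the threshold (adjusted p = 0.0901). This change was called by DESeq2 (1.79, adjusted p = 0.0445), with only the groups compared (1.79, adjusted p = 0.0124), with no filter (1.78, adjusted p = 2.11e-23) and without parental doxorubicin 3 (1.79, adjusted p = 0.0227), and the highest adjusted p over its alternatives was 0.248. With no filter 884 of 30339 genes were called in this comparison, against 139 of 13495 with it. With only the groups compared MMP1 was thus called and MMP16 was not (adjusted p = 0.0502).

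Ordered by group mean, MMP1 was highest in parental doxorubicin tumours (141 ± 152 CPM, n = 3), followed by parental combination (94.3 ± 26.4, n = 4), parental decitabine (52.2 ± 16.0, n = 4), resistant combination (44.3 ± 36.5, n = 3) and parental vehicle tumours (27.4 ± 10.8, n = 4, SD throughout). Resistant decitabine (14.2 ± 5.68, n = 3), resistant doxorubicin (8.37 ± 3.08, n = 4) and resistant vehicle tumours (5.85 ± 3.55, n = 4) came last. The library ranges of neighbouring groups overlapped throughout, except between parental vehicle and resistant decitabine. MMP16 ran from 17.6 ± 1.09 CPM in parental vehicle to 4.13 ± 0.712 CPM in resistant vehicle tumours, with the 6 drug-treated groups between them. Its neighbouring ranges were apart between parental decitabine and parental combination, and between resistant decitabine and resistant combination tumours. For TIMP3 the 4 resistant groups came before the 4 parental groups, and the only gap between neighbouring ranges was at the step between the lines.

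**Figure D4:**
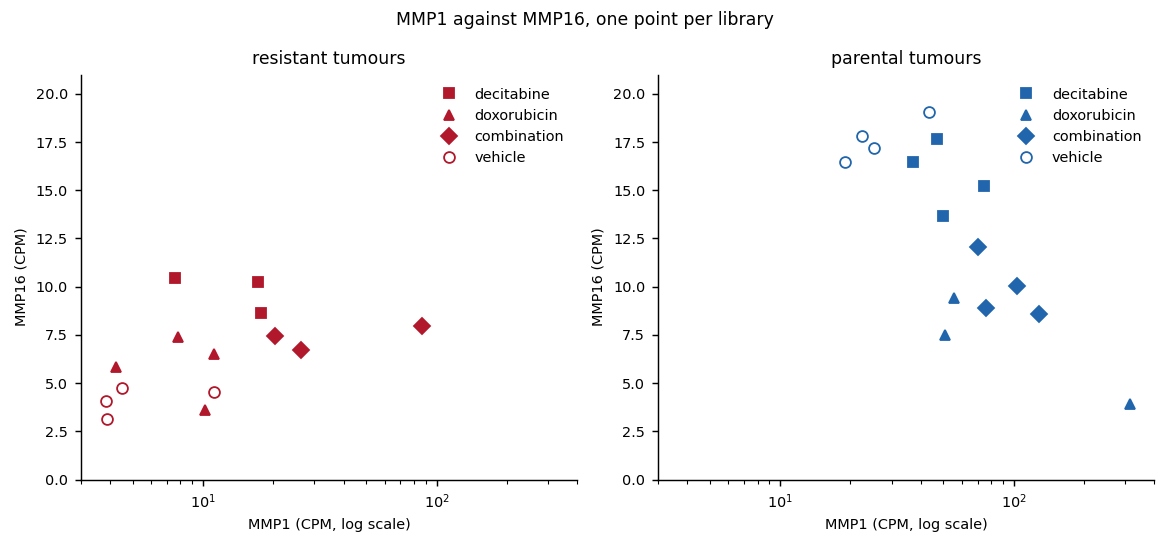
MMP1 (CPM, log axis) against MMP16 (CPM) with 1 point per library, in resistant (left, 14 libraries) and parental tumours (right, 15 libraries), with the treatment given by the symbol. In parental tumours the libraries with doxorubicin lie lower right (MMP16 at most 12.1 CPM) and those without it upper left (at least 13.7 CPM), while in resistant tumours vehicle libraries lie lower left.

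Relations between the 9 genes were computed over log2 CPM within each line, 72 in all, with 100000 permutations and Benjamini-Hochberg adjustment over the 72. By Pearson's r 4 passed an adjusted p of 0.05, and 3 also by Spearman's rho. These 4 were recomputed within drug arms, a split chosen after the values were seen, with adjustment over those 8 relations. In parental tumours MMP16 fell into libraries with and without doxorubicin that did not overlap, so no pooled value is given for it. Within these sets the MMP1 to MMP16 relation was not called (r = -0.74, exact permutation p = 0.173, rho = -0.29, p = 0.556 over the 7 libraries with doxorubicin, and r = -0.37, p = 0.372, rho = -0.36, p = 0.389 over the 8 without). The MMP10 to MMP16 relation was not called within them either (r = -0.85, exact permutation p = 0.111 with and r = 0.32, p = 0.427 without doxorubicin). All 4 had adjusted p of at least 0.296. MMP1 and TIMP3, collagenase and inhibitor, ran against each other over the 15 parental libraries (r = -0.79, permutation p = 0.00015, adjusted 0.00648, and rho = -0.75, p = 0.00169, adjusted 0.0304). Without the 2 libraries farthest in MMP1, r was -0.75. The relation was not called over the 14 resistant libraries (r = -0.33, permutation p = 0.237, adjusted 0.527, and rho = -0.20, p = 0.494, adjusted 0.772). There r was 0.10 without the 2 farthest. Over the 8 parental libraries without doxorubicin r was -0.93 (exact permutation p = 0.000198, adjusted 0.00159) and rho -0.98 (p = 0.000397, adjusted 0.00317), and over the 7 with it r was -0.62 (p = 0.0825, adjusted 0.296) and rho -0.68 (p = 0.110, adjusted 0.438). Each of these sets holds libraries of 2 treatments, whose difference in level can enter r. Without doxorubicin, MMP1 averaged 52.2 CPM with decitabine and 27.4 CPM with vehicle, and TIMP3 1215 and 1454 CPM. The pair was picked because it passed over these same 15 libraries. Its p-values within sets, and as deviations, are therefore no separate test of the relation. Taken as deviations from the means of the 4 parental groups, with permutations only within a group and adjustment over the 4 relations, r was -0.70 (exact permutation p = 0.00758, adjusted 0.0303), while on ranks it was -0.62 (p = 0.0385, adjusted 0.154). The remaining relation was that of MMP9 and MMP16 in resistant tumours. There MMP9 fell into libraries with and without decitabine that did not overlap, so no pooled value is given for this pair either. Within resistant libraries with decitabine r was 0.22 (exact permutation p = 0.678, n = 6) and within those without it 0.33 (p = 0.413, n = 8). The pair was thus not called within the arms. As deviations from group means its r was -0.12 (exact permutation p = 0.680).

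The gene most like a member was the one whose lower correlation of the 2 lines was highest, and these values are descriptions. For MMP9 it was PLA2G4C, a phospholipase (r = 0.74 over 15 parental and 0.92 over 14 resistant libraries). For MMP1 it was NEIL2, a DNA glycosylase (0.75 and 0.73), for MMP14 LHFPL2 (0.84 and 0.89), and for MMP16 PARP14 (0.73 and 0.81). TIMP1 was most like EIF1, a translation initiation factor (0.90 and 0.87). The genes most like MMP1, MMP9 and MMP16 included no other of the 10.

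Other genes of matrix proteolysis were taken from gene lists of their roles. Their counts are to be read against the shares of all genes called between the lines, 8.66% higher and 11.5% lower under vehicle and 22.6% higher and 23.4% lower over the 4 treatments. Of 15 further metalloproteases of the family, 3 passed the filter and none was called between the lines under vehicle. Among 5 other metalloprotease inhibitors tested, 3 were lower in resistant vehicle tumours, among them SPOCK1, a proteoglycan (-0.89 ± 0.16, adjusted p = 0.000128), and TFPI2, an inhibitor of plasmin (-0.53 ± 0.17, adjusted p = 0.0241). Over the 4 treatments 2 were lower, and TIMP2 was higher (0.31 ± 0.08, adjusted p = 0.00247). Of 9 tested genes of plasminogen activation, 3 were higher in resistant vehicle tumours, namely PLAT, the tissue plasminogen activator (0.80 ± 0.15, adjusted p = 0.000366), and ANXA2 and S100A10, which form a plasminogen-binding complex (0.64 ± 0.15, adjusted p = 0.00251, and 0.40 ± 0.13, adjusted p = 0.0247). Over the 4 treatments 3 were higher and 1 lower, and the list's median log2 difference was -0.06. PLAU, the urokinase that can start the activation of proMMPs through plasmin, was at 24.9 ± 8.59 CPM in resistant and 15.3 ± 7.71 CPM in parental vehicle tumours (SD, n = 4 each), which was not called.

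Of 13 AP-1 and ETS factors, which bind promoters of several of these proteases, 3 were higher in resistant vehicle tumours and none was lower. Of all genes tested, 8.66% were called higher and 11.5% lower there. FOSL1 had the largest called difference (0.71 ± 0.18, adjusted p = 0.00474). Over the 4 treatments 2 of the factors were higher and 2 lower, with JUN (-0.42 ± 0.08, adjusted p = 0.000151) and JUND (-0.33 ± 0.12, adjusted p = 0.0257) lower. Of 4 tested cytokines that induce MMPs, 1 was higher in resistant vehicle tumours, CXCL8 (1.29 ± 0.44, adjusted p = 0.0396). The called cytokines with at least 5 CPM over the 4 treatments were IL1B (0.99 ± 0.28, adjusted p = 0.00448) and CXCL8 (0.75 ± 0.22, adjusted p = 0.00799). Among 7 tested neighbours of the chromosome 11 cluster, 1 was higher and 1 lower in resistant vehicle tumours, the apoptosis inhibitor BIRC3 (0.89 ± 0.20, adjusted p = 0.00204) and the dynein gene DYNC2H1 (-0.57 ± 0.15, adjusted p = 0.00682), a share near that of all genes called in this comparison (20.1%). MMP1 and MMP10, between them on the chromosome, were both lower. Of 7 tested partners of MMPs in invasion, SPP1, the secreted matrix protein osteopontin, was called with decitabine in resistant tumours. It averaged 14.3 ± 6.64 CPM in resistant decitabine (n = 3) and 1.51 ± 1.23 CPM in resistant vehicle tumours (n = 4, SD). The log2 fold change was 3.26 ± 0.47 (adjusted p = 0.000109), in a comparison where 3.33% of all genes tested were called. Averaged over both lines and doxorubicin, decitabine raised SPP1 by 2.97 ± 0.31 (adjusted p = 1.47e-07), so its rise was not shown to be particular to resistant tumours.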

How the data were processed

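Frozen tumours were sequenced as poly(A)-primed tags with the QuantSeq FWD kit (Lexogen), per the labels' protocols. The authors deposited whole-number read counts of exons for each gene, without scaling. The submitters' processing notes name trimming with cutadapt, the aligner STAR 2.7.3a, featureCounts, DESeq2 and the build GRCh38.p10. Which annotation was used, how strand was set and what was done with mouse reads are not given in the sources used here.

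Gene names and coordinates came from GENCODE 29 and promoters from RefSeq. The 10 genes and all gene lists were chosen with earlier results of these data known. All 29 libraries (3398261 to 5382295 counts each) entered 1 quasi-likelihood fit with robust dispersion (edgeR 4.0.16, R 4.3.3) on 8 groups, after TMM scaling and filterByExpr (minimum count 10, minimum total 15), which kept 13495 genes. Benjamini-Hochberg adjustment ran over all genes of a comparison. CPM used TMM-scaled library sizes. Correlations, added after values were seen, as were those of deviations from group means, used log2(CPM + 1) with scipy 1.17.1. The fit was tested on simulated data. Intervals for ratios of counts are exact at 95% and cover counting error only. Within groups, all pairs of libraries differed by more than sampling noise (chi-square over degrees of freedom at least 3.65). Genes named were the 10 genes, at most 4 called genes with at least 5 CPM per list and comparison, and the most alike genes, of which 1 result is not reported here. Exceptions to this rule, named after their values were seen, were PLAU, LUM, COL1A1, VIM, PGR, the myeloid and neutrophil markers and the genes with no count. Alternatives were other scalings, other filters, DESeq2 1.42.0, a block by replicate number, only the groups compared, leaving out each library, and leaving out the 2 libraries that stood apart.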

Additional observations from a re-analysis of the deposited data

Results flagged for a closer look

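In groups of 4 libraries, a single value far from the other 3 (Dixon's ratio above 0.829) was found for 4 of 45 gene and group pairs, where chance gives about 1 in 20. MMP1 was at 11.1 CPM in resistant vehicle 2, against 3.84 to 4.52 CPM in the other 3. MMP2 was at 0.224 CPM, 1 count, in resistant doxorubicin 3 and at 0 in the others. MMP3 was at 7.22 CPM in parental decitabine 3, against 3.61 to 4.18 CPM, and MMP10 at 3.79 CPM in resistant doxorubicin 4, against 1.31 to 1.60 CPM.

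MMP14 differed between the lines in its averaged decitabine response by 0.82 log2 units (adjusted p = 0.0423 in edgeR), higher in resistant tumours. Leaving out 1 library at a time gave 0.67 to 0.84 in the fits that lost the call.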

How the results depend on the processing

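Counts are of the 10 genes that were tested and called by edgeR, unless stated. For decitabine in parental tumours, 1 was called, and 2 with no filter on low counts, 0 without the 2 libraries that stood apart and 0 with only the groups compared. For doxorubicin in parental tumours, 2 were called, 1 without the 2 libraries and 0 with only the groups compared. For the combination in parental tumours, 1 was called (MMP16), 2 with no filter and 2 by DESeq2 (MMP1 added), 0 without the 2 libraries, and with only the groups compared 1, MMP1 in place of MMP16. For the combination in resistant tumours, 2 were called, and 0 with only the groups compared, where MMP1 was not called (adjusted p = 0.134) and MMP9 failed the filter and was not tested. For the line difference in the decitabine response, 1 was called, 2 with upper quartile scaling, 3 with no filter, 0 with a filter of 1 CPM, 3 by DESeq2 and 0 without the 2 libraries. The causes of these shifts were not tested.

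Replicate numbers did not pair the libraries (same-number correlations of deviations ran from -0.461 to 0.427, median -0.00143, and 6 of 29 libraries correlated best with their own number). With the replicate number as a block, 0 were called for decitabine and 1 for doxorubicin in parental tumours, and 2 for the line difference in the decitabine response. Leaving out 1 library at a time gave 4 to 6 calls for the line difference under vehicle and 7 to 8 over treatments, 0 to 1 for decitabine in parental tumours, 0 to 2 for doxorubicin and 0 to 2 for the combination in parental tumours, 0 to 3 for the combination in resistant tumours, 2 to 5 for the mean decitabine and 1 to 4 for the mean doxorubicin effect, and 0 to 2 for the line difference in the decitabine response.

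Of 2833 refits of 78 reported values, 2645 kept direction and side of the threshold, 140 lost the call, 44 gained it and 4 changed sign. A further 30 values, uncalled and less than 1 SE from 0, are left out of that tally, and 42 of their 1085 refits changed sign. Sign changes were those of the mean line difference of MMP14 without resistant doxorubicin 2 (-0.014), parental vehicle 1 (-0.0054) or parental doxorubicin 2 (-0.028), where leave-one-out values ran up to 0.11, and of MMP3 with decitabine in resistant tumours without resistant decitabine 1 (-0.62), with values up to 1.10. MMP13, outside the filter, was called lower in resistant tumours over treatments with no filter (-1.37, adjusted p = 0.0249) and by DESeq2 (-1.46, adjusted p = 0.0353). Depth limits MMP2, MMP3, MMP9 and MMP13, which had from 63 to 471 counts in all 29 libraries.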
